A study of Mus musculus with 8 samples.

Results

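The Hox genes of the mouse lie in 4 clusters and were taken as every locus of the deposited table that carries a Hox name of the a, b, c or d series with a number from 1 to 13. The rule found 41 loci with 39 Hox gene names among 26747 loci in all, 23165 of which carry a gene name. Messenger RNA was measured in whole stomachs of mouse embryos at E13.5, with 4 libraries labelled wild type and 4 of the genotype Nkx3.2Cre;R26-YAP5SA, called YAP5SA here. YAP, a coactivator of transcription, is held in check by phosphorylation through the Hippo kinases, and YAP5SA lacks the serines they act on; the name of the genotype places it at the Rosa26 locus behind Nkx3.2Cre, a recombinase active in the mesenchyme of the stomach among other tissues. Epithelium, nerve cells and blood cells of the organ were therefore part of the same RNA, and the labels do not give sex, strain, litter or pooling.

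Hox proteins are homeodomain transcription factors that give cells their position along the body axis. The order of the genes on the chromosome runs parallel to where they are active: genes with low numbers reach far forward, and genes with high numbers are confined to posterior regions such as the hindgut, the tail bud and the distal limb. In the gut they mark the regions of the mesenchyme, and the stomach lies in front of the territory of the highest numbers. Members with the same number in different clusters, the paralogue groups, descend from the same ancestral gene and overlap in function.

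HoxA lies on chromosome 6 of build mm10, and the other clusters span 174 kb on chromosome 11 (HoxB, 96194361 to 96368253), 116 kb on chromosome 15 (HoxC, 102921131 to 103036852) and 96.8 kb on chromosome 2 (HoxD, 74668310 to 74765142) of build mm10. Of the 41 loci, 34 stood among loci of the strand on which their cluster is transcribed and 7 among loci of the opposite strand. The strand was read from the order in which the table numbers its loci, which matched the GENCODE strand for 99.8% of 19421 loci with a single name. Joined loci, 5 in all, hold several genes and give 1 value for them: Hoxa2,Hoxa3,Hoxa5,Hoxa6, then Hoxa7,Mira, Hoxb3,Hoxb4,Mir10a and Hoxb5,Hoxb6 on the cluster strand, and Hoxa3,Hoxa4 on the opposite strand. Where loci lie on the same coordinates, fragments were split between them: in all 40 library values with such a split the parts added up to a whole number within 0.01.

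RefSeq promoter windows (assembly GRCm38.p6, the assembly called mm10 here) were found for 22 of the 39 Hox genes. The stretches of 250 bases before the start site are shown for the 4 genes of the set with a window whose cluster-strand locus passed the test below: Hoxa7, Hoxa9 and Hoxd8, which were higher in YAP5SA, and Hoxd3, which was lower. They are written 5′ to 3′ along each gene, and capitals mark a match to GGAATG, the core of the sites bound by TEAD, the DNA-binding partner of YAP.
Hoxa7 (chr6:52218574-52218823, minus strand): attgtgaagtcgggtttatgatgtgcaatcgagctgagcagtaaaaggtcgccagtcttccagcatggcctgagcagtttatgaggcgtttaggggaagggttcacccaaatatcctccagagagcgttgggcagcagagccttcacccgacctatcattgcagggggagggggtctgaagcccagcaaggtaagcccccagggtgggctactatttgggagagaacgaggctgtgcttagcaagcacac
Hoxa9 (chr6:52227371-52227620, minus strand): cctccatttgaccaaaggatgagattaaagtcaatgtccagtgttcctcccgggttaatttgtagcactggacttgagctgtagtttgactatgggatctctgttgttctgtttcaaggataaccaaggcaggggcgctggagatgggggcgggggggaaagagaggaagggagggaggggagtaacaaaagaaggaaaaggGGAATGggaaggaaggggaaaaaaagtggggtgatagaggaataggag
Hoxd8 (chr2:74704365-74704614, plus strand): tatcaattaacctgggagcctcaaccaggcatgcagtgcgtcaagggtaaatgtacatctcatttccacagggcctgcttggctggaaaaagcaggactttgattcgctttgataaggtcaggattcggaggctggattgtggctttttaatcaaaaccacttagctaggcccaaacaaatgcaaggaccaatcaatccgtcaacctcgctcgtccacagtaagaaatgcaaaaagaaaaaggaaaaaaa
Hoxd3 (chr2:74711743-74711992, plus strand): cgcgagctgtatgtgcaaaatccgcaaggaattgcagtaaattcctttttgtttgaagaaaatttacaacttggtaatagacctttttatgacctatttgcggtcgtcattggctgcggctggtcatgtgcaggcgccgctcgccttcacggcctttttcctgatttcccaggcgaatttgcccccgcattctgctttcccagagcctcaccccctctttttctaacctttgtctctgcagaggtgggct
The Hoxa9 stretch held 1 match on its own strand, with its first base 48 bases before the start site. GGAATG was searched on both strands in windows of 300 bases, 250 before and 50 after the start, and matched 2 of 24 Hox windows (8.33%), those of Hoxa9 and Hoxd10, against 4817 of 32851 windows of all genes (14.7%). A Hox-Pbx site, TGATTNAT on either strand, matched 2 of the 24 (8.33%), Hoxa2 and Hoxd11, against 3.22% of all windows. These are matches of letters in short windows, and binding was not measured.

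Libraries held 6328344 to 6919353 fragments in wild type and 7293556 to 8513116 in YAP5SA. Genotypes were compared with the edgeR quasi-likelihood test on fragment counts, and p-values were adjusted by Benjamini-Hochberg over the 14574 named loci that passed a filter on low counts; any adjusted p below comes from that edgeR test if no other tool is given with it. Levels are given as CPM, fragments scaled to the size of the library, and as FPKM, fragments scaled to library size and transcript length, which alone allows levels of different genes to be compared. The transgene cannot be told from the mouse gene in these values: Yap1 averaged 232 CPM in wild type and 224 in YAP5SA (log2 fold change -0.05 ± 0.05 SE, adjusted p = 0.55). The YAP target genes Ankrd1 (log2 fold change 6.83 ± 0.58 SE, adjusted p = 7.1e-05) and Cyr61 (1.48 ± 0.12, adjusted p = 5.5e-05) were higher in the YAP5SA libraries. Nkx3-2 itself, a marker of stomach mesenchyme, was present at 63.0 ± 10.5 and 79.1 ± 14.5 CPM. Nothing in the labels ties a library to its own embryo, so the p-values reflect only the scatter of these libraries, which may be technical.

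The stomach expressed most of the anterior and central members found and hardly any member with a number from 10 to 13. Among the anterior and central members, Hoxd1 and Hoxc8 stood lowest in wild type, at 0.0908 and 0.316 FPKM. In wild type the highest levels per length were those of the joined locus Hoxa2,Hoxa3,Hoxa5,Hoxa6 at 64.8 ± 5.55 FPKM (SD, n = 4), of Hoxb3,Hoxb4,Mir10a at 49.5 ± 3.88 and of Hoxb5,Hoxb6 at 49.5 ± 5.87. Each of these values pools several genes, so it does not rank the single genes within. On the cluster strand the highest locus with a single Hox gene was Hoxb2 at 34.7 ± 1.98 FPKM. HoxC was led by Hoxc5 at 21.5 ± 1.84 FPKM and Hoxc4 at 20.4 ± 1.25, and HoxD by Hoxd3 at 10.7 to 14.9 and Hoxd4 at 5.94 ± 1.09. The levels of each of these neighbouring pairs within HoxB and HoxC differed by less than their SDs.

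The decline with paralogue number was steep. Within HoxB, wild type levels went from 24.5 ± 4.42 FPKM for Hoxb8 to 2.66 ± 1.09 for Hoxb9 and to 0 for Hoxb13. Within HoxA they went from 20.8 ± 4.29 for Hoxa7,Mira to 1.12 ± 0.277 for Hoxa9. HoxC ended earlier, with Hoxc6 at 3.49 ± 0.635 FPKM, Hoxc8 at 0.316 ± 0.363 and Hoxc9 at 0. Levels were also low at the anterior end, where Hoxb1 stood at 0.964 ± 0.604 FPKM and Hoxd1 at 0.0908 ± 0.105.

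**Figure D1:**
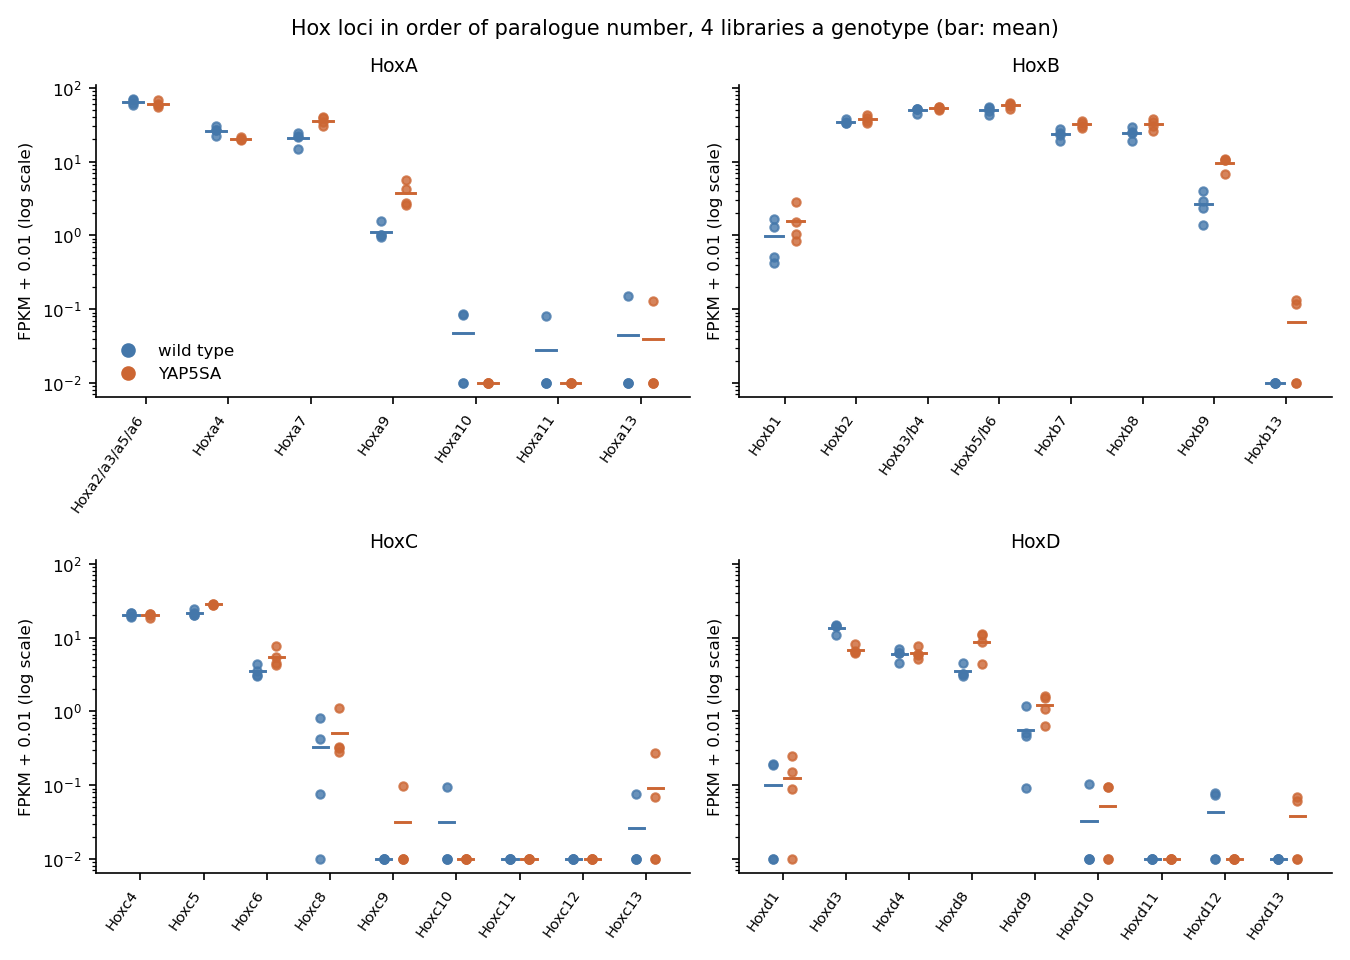
Level of 33 cluster-strand Hox loci in FPKM + 0.01 on a log axis, ordered by paralogue number within each cluster, with 1 point per library and a bar at the mean of 4 wild type (blue) or 4 YAP5SA (orange) libraries. Levels fall towards the high numbers in both genotypes, and Hoxa9 and Hoxb9 lie higher in every YAP5SA library than in any wild type library, while Hoxd3 lies lower.

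Of the 41 loci, 26 passed the filter and 15 were not tested. The 15 were all 12 loci with numbers 10 to 13, together with Hoxc8, Hoxc9 and Hoxd1. None of the 12 reached more than 5 fragments in any library, in either genotype, and Hoxc11, Hoxc12 and Hoxd11 had none in all 8. A count of 0 allows up to 3 fragments, or 0.352 to 0.474 CPM depending on the library, counting error only. Hoxc8 had 0 to 11 fragments in wild type and 5 to 18 in YAP5SA, and the ranges overlapped.

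In YAP5SA 8 of the 26 tested loci rose and 2 fell. Over all loci tested 9.06% were called higher and 9.85% lower, so the share of Hox loci called higher (30.8%) lay above the background and the share called lower (7.69%) near it. The groups did not overlap for the same 8 and 2 loci, against a background of 10.9% higher and 12.4% lower. The median log2 fold change of the 26 was 0.34, beside -0.01 for all tested loci, whose quartiles were -0.13 and 0.13. The filter bears on Hoxb1, Hoxd9 and the opposite-strand locus of Hoxd8, which had fewer than 4 wild type libraries at its minimum. The last of these reached the minimum in 4 YAP5SA libraries and in 1 wild type library, so that it could be tested only because it was high in YAP5SA. It is among the 8 loci counted as higher above.

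On the cluster strand the calls of a rise lay mostly at the highest numbers that could be tested. Of 13 loci with numbers up to 6, 12 were tested, of which 1 rose, 2 fell and the median log2 fold change was 0.12. Of 9 loci with numbers 7 to 9, 7 were tested, of which 5 rose and none fell. The other 2, Hoxb8 and Hoxd9, had positive fold changes that missed the threshold. The median of 1.10 was the value of Hoxd9, which reached the minimum of the filter in 1 wild type and 3 YAP5SA libraries. Hoxd9 thus passed the filter mainly through the group where it was high, and this median cannot count as support for a rise. The split between 6 and 7 was chosen after the values were seen, and it carries no test.

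**Figure D2:**
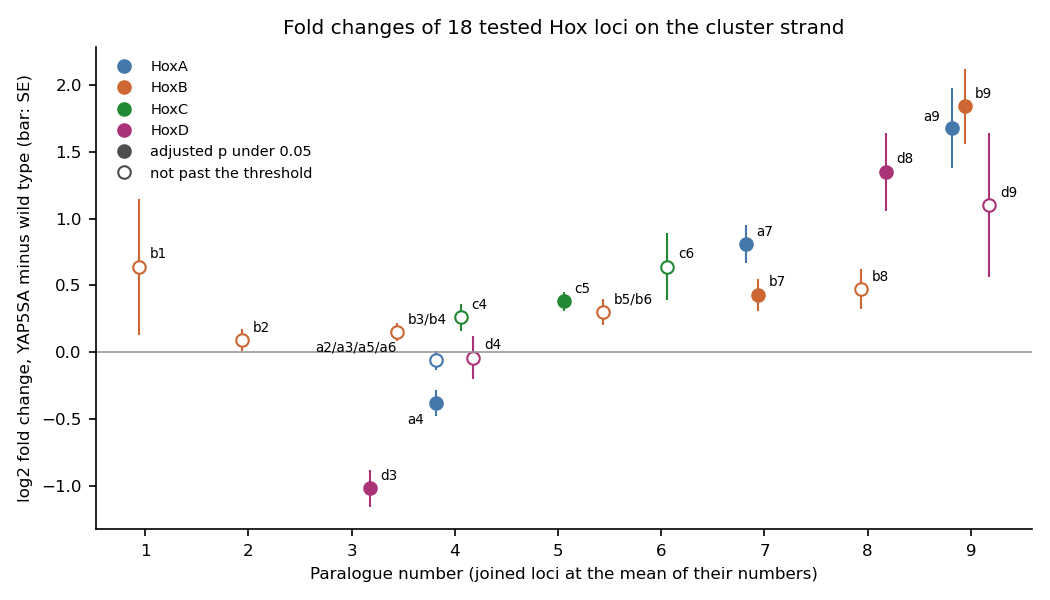
Log2 fold change, YAP5SA minus wild type, of 18 tested cluster-strand loci against paralogue number, with the SE as a bar, coloured by cluster and filled where the adjusted p was under 0.05. Values lie between -1.02 and 0.64 for numbers 1 to 6 and between 0.43 and 1.84 for numbers 7 to 9.

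Among the anterior members, with numbers 1 to 3, Hoxd3 was the locus that changed. Hoxd3, whose protein acts with other group 3 proteins in patterning the neck skeleton and hindbrain, was at 48.5, 36.0, 48.6 and 48.0 CPM in the 4 wild type libraries and at 28.0, 20.6, 19.7 and 20.9 CPM in the YAP5SA libraries. Replicate 2 was the low library of the wild type and replicate 1 the high one of YAP5SA, and the groups did not overlap. Hoxd3 fell by 1.02 on the log2 scale (SE 0.14, adjusted p = 0.00078). Its FPKM, per length, was 14.9, 10.7, 14.1 and 14.2 in wild type and 8.22, 6.42, 6.24 and 6.55 in YAP5SA.

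Hoxd4, which lies on the same coordinates as Hoxd3 in the table, did not pass the test. It was at 28.6, 22.9, 35.5 and 31.9 CPM in wild type and at 35.8, 28.9, 27.0 and 23.6 in YAP5SA, which overlap (log2 fold change -0.04 ± 0.16 SE, adjusted p = 0.89). Counted as 1 locus with their neighbours on those coordinates, Hoxd3 and Hoxd4 were at 75.1 ± 11.1 CPM in wild type and 51.2 ± 8.80 in YAP5SA, and fell by 0.54 (SE 0.13, adjusted p = 0.019). This sum was added after the data were seen.

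No other anterior locus passed the test. Hoxb2, a gene of hindbrain segmentation, was at 55.5 ± 3.24 CPM (SD, n = 4) in wild type and 59.0 ± 6.66 in YAP5SA (log2 fold change 0.09 ± 0.08 SE, adjusted p = 0.56). Hoxb1 had 5 to 21 fragments in wild type libraries and 13 to 40 in YAP5SA, and its log2 fold change of 0.64 ± 0.51 gave an adjusted p of 0.45. Hoxd1 had at most 3 fragments in a library.

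The joined loci of the anterior and central genes hold many of the Hox fragments of the stomach and did not pass the test. Hoxa2,Hoxa3,Hoxa5,Hoxa6 includes Hoxa5, a mesenchymal regulator of lung and stomach development, and was at 275, 312, 290 and 349 CPM in wild type and 286, 289, 284 and 314 in YAP5SA. The YAP5SA values lay inside the wild type range (log2 fold change -0.06 ± 0.07 SE, adjusted p = 0.62). Hoxb3,Hoxb4,Mir10a, with 2 Hox genes and a microRNA, was at 152, 180, 177 and 192 CPM in wild type and 186, 190, 195 and 206 in YAP5SA. These ranges overlapped as well (log2 fold change 0.15 ± 0.07, adjusted p = 0.18). Opposite changes of the genes within a joined locus cannot be seen in its value.

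Hoxb5,Hoxb6, the third locus of this kind, lay near the threshold. It was at 75.8, 99.1, 107 and 92.4 CPM in wild type and 101, 111, 118 and 129 in YAP5SA, with 1 wild type library inside the YAP5SA range (log2 fold change 0.30 ± 0.10 SE, adjusted p = 0.077). With the replicate numbers as a block, which the libraries' shared deviations allow, the edgeR adjusted p was 0.017. It was also past the threshold in edgeR without wild type replicate 3 (adjusted p = 0.038) or without YAP5SA replicate 1 (0.039). Without any other single library Hoxb5,Hoxb6 missed the threshold in edgeR (adjusted p = 0.09 to 0.17), as it did in limma on FPKM (0.12 to 0.15).

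In group 4 the HoxA locus, Hoxa4, passed the test in the downward direction. Hoxa4 was at 29.6, 36.0, 36.0 and 40.6 CPM in wild type and 25.9, 27.4, 27.1 and 29.2 in YAP5SA, and the groups did not overlap, although wild type replicate 1 stood close to the highest YAP5SA library. Hoxa4 fell by 0.38 on the log2 scale (SE 0.10, adjusted p = 0.026). The call was lost without any 1 of several libraries. In edgeR the adjusted p was 0.077, 0.065 and 0.07 without wild type replicates 2, 3 and 4. It was 0.061, 0.07 and 0.067 without YAP5SA replicates 1, 2 and 3. Hoxa4 had log2 fold changes between -0.37 and -0.31 in these fits. Summed with the 4 other loci on its coordinates, which include the joined Hoxa2,Hoxa3,Hoxa5,Hoxa6, it gave 463 ± 46.5 CPM in wild type and 460 ± 33.8 in YAP5SA (log2 fold change 0.00, SE 0.08, adjusted p = 0.99).

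In HoxC the pair of highest loci differed in their calls. Hoxc5 was at 51.6, 55.4, 62.4 and 52.7 CPM in wild type and at 72.9, 71.2, 71.0 and 73.4 in YAP5SA, where the 4 libraries lay close together and above every wild type library. Hoxc5 rose by 0.38 on the log2 scale (SE 0.07, adjusted p = 0.0029). Hoxc4 was at 51.5, 50.3, 59.2 and 69.2 CPM in wild type and 66.7, 64.4, 68.1 and 75.7 in YAP5SA, with an overlap through wild type replicate 4 (log2 fold change 0.26 ± 0.10 SE, adjusted p = 0.10). The replicate block in edgeR gave Hoxc4 an adjusted p of 0.022 and leaving out wild type replicate 4 gave 0.018, but its FPKM hardly differed, 20.4 ± 1.25 against 20.1 ± 1.24. Hoxc6, the last HoxC gene that could be tested, was at 4.95 ± 0.894 and 7.71 ± 2.23 CPM (log2 fold change 0.64 ± 0.25, adjusted p = 0.11).

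The central group 7 rose in both clusters that hold it. Hoxa7 is joined with Mira, a noncoding transcript between Hoxa6 and Hoxa7, and the locus was at 27.6, 35.6, 37.0 and 38.1 CPM in wild type and at 50.7, 52.6, 63.4 and 76.2 in YAP5SA. Every YAP5SA library stood above every wild type library. Hoxa7,Mira rose by 0.81 on the log2 scale (SE 0.14, adjusted p = 0.0032). Hoxb7 was at 20.7, 30.0, 26.1 and 25.1 CPM in wild type and 32.3, 38.6, 36.2 and 30.5 in YAP5SA, where the lowest YAP5SA library lay just above the highest wild type library. Its rise of 0.43 (SE 0.12, adjusted p = 0.033) missed the threshold in edgeR without wild type replicates 1, 3 or 4 (adjusted p = 0.064, 0.059 and 0.069) and without YAP5SA replicates 2 or 3 (0.078 and 0.087).

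In group 8 the locus of HoxD rose and that of HoxB lay at the threshold. Hoxd8 was at 6.20, 5.73, 7.20 and 4.90 CPM in wild type and at 17.5, 21.1, 15.1 and 7.51 in YAP5SA. YAP5SA replicate 4 stood far below the rest and only just above the highest wild type library. Hoxd8 rose by 1.35 on the log2 scale (SE 0.29, adjusted p = 0.0092). With the opposite-strand locus on its coordinates it rose by 1.49 (SE 0.23, adjusted p = 0.0017), from 7.24 ± 1.20 to 20.2 ± 5.67 CPM. That sum was added after the data were seen. It takes in a locus that passed the filter only because it was high in YAP5SA, so the p of the sum cannot count as further support. Hoxb8, a gene also known for its part in blood progenitors and microglia, was at 31.3, 41.9, 49.2 and 43.3 CPM in wild type and 47.1, 52.1, 61.3 and 69.5 in YAP5SA. These ranges overlapped through wild type replicate 3 (log2 fold change 0.47 ± 0.15 SE, adjusted p = 0.0502). With the replicate block the edgeR adjusted p was 0.0048. In edgeR it was 0.032 without wild type replicate 3 and 0.024 without YAP5SA replicate 1, but 0.057 to 0.13 without any other single library. The adjusted p for Hoxb8 was 0.06 in limma-voom and 0.095 to 0.11 in limma on FPKM.

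In group 9, the most posterior group that could be tested, Hoxb9 and Hoxa9 rose. Hoxb9 was at 3.50, 6.03, 10.2 and 7.42 CPM in wild type and at 16.9, 27.1, 26.8 and 26.8 in YAP5SA. Replicates 2 to 4 of YAP5SA lay together, replicate 1 lay lower, and all stood above the wild type. Hoxb9 rose by 1.84 on the log2 scale (SE 0.28, adjusted p = 0.0014), which took it from 2.66 ± 1.09 to 9.63 ± 1.97 FPKM. Hoxa9, whose protein is needed in blood progenitors and in the posterior axis, was at 2.86, 2.94, 2.70 and 4.42 CPM in wild type and at 7.19, 7.60, 11.7 and 15.2 in YAP5SA, without overlap. It rose by 1.68 (SE 0.30, adjusted p = 0.0034), from 1.12 ± 0.277 to 3.79 ± 1.43 FPKM. Hoxd9 had 1 to 15 fragments per library in wild type and 9 to 23 in YAP5SA, and its log2 fold change of 1.10 ± 0.54 did not pass (adjusted p = 0.20). Hoxc9 had 1 fragment in all.

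**Figure D3:**
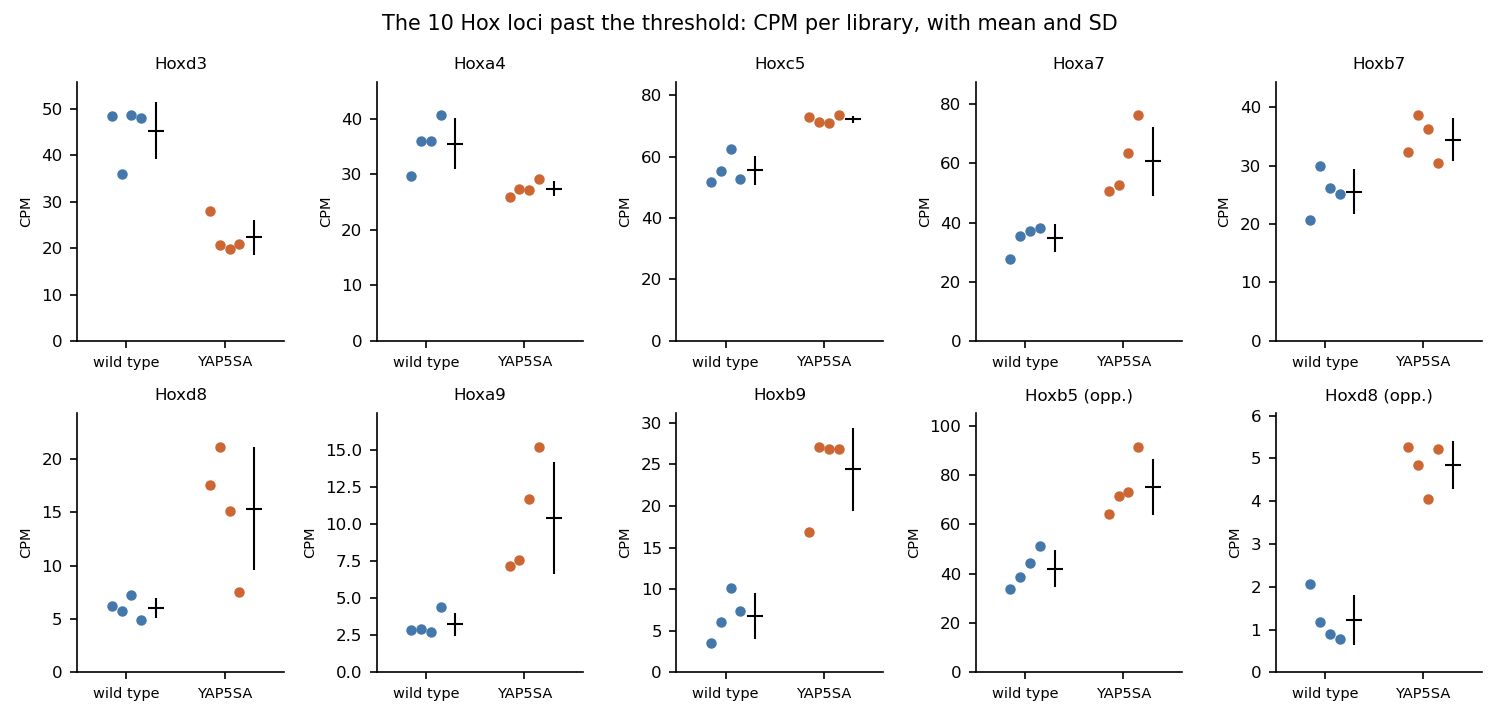
Level in CPM of the 10 Hox loci with an adjusted p under 0.05, with 1 point per library and the mean and SD of 4 libraries in black, ordered by paralogue number with the opposite-strand loci (opp.) last. The groups do not overlap in any panel, although Hoxd8 in YAP5SA replicate 4, at 7.51 CPM, comes close to the highest wild type library at 7.20.

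Loci on the opposite strand gave 2 calls among 7. The opposite-strand locus named Hoxb5, on the coordinates of Hoxb5,Hoxb6, was at 33.8, 38.8, 44.4 and 51.3 CPM in wild type and at 64.3, 71.6, 73.0 and 91.4 in YAP5SA. It rose by 0.83 on the log2 scale (SE 0.14, adjusted p = 0.0021). Counted together with Hoxb5,Hoxb6, the coordinates gave 136 ± 18.2 CPM in wild type and 190 ± 23.0 in YAP5SA, a rise of 0.49 (SE 0.10, adjusted p = 0.0083). This sum too was added after the data were seen. The opposite-strand Hoxd8 locus had 4.8 to 13.1 fragments in wild type and 29.6 to 44.4 in YAP5SA (log2 fold change 1.97 ± 0.31, adjusted p = 0.0019). It passed the filter only because it was high in YAP5SA, so its p cannot count as support for a rise. None of the other 5 passed; the opposite-strand loci of Hoxa3, Hoxa3,Hoxa4, Hoxb3 and Hoxc4 had log2 fold changes from -0.03 to 0.12 with adjusted p from 0.67 to 0.96. The sources used here do not give whether the counting used strand, so antisense transcripts and reads of the Hox genes themselves cannot be told apart.

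Summed per library, FPKM showed how little of the total the posterior genes make up. Joined loci were placed by the mean of their numbers, and Hoxa9, Hoxb9 and Hoxd9 make up nearly all of the last class. Numbers 9 to 13 summed to 2.92, 3.90, 6.53 and 4.66 FPKM in wild type and to 10.7, 15.2, 16.5 and 17.1 in YAP5SA, with no overlap and a ratio of means of 3.30. As a share of all Hox FPKM they made up 1.19% ± 0.321 (SD, n = 4) in wild type and 3.45% ± 0.494 in YAP5SA. Numbers 4 to 8 summed to 314 ± 28.2 FPKM in wild type and 360 ± 20.4 in YAP5SA, and these ranges overlapped. Numbers 1 to 3 summed to 55.6 ± 4.17 and 53.4 ± 3.44 FPKM, a log2 difference of -0.06, but to 111 ± 6.89 and 93.3 ± 4.99 CPM, a log2 difference of -0.26, since Hoxd3 weighs more where length is not divided out. The whole of the Hox loci on the cluster strand came to 374 ± 30.6 FPKM in wild type and 428 ± 25.2 in YAP5SA. No test was run on these sums.

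**Figure D4:**
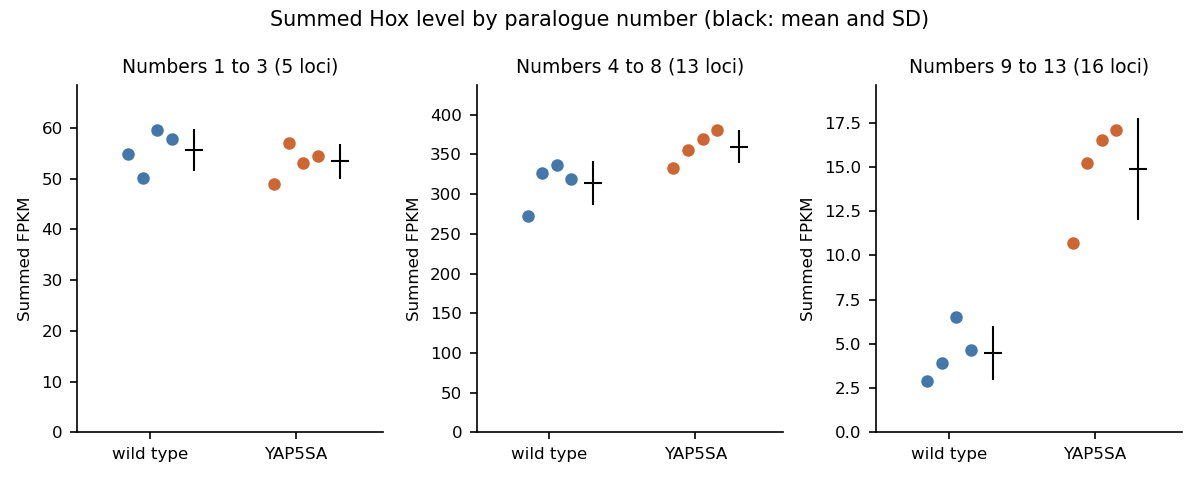
Summed FPKM of cluster-strand Hox loci with numbers 1 to 3, 4 to 8 and 9 to 13, with 1 point per library and the mean and SD of 4 libraries in black, each panel on its own axis from 0. The YAP5SA libraries stand above all wild type libraries for numbers 9 to 13, at 10.7 to 17.1 against 2.92 to 6.53, and the groups overlap for the other sums.

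Paralogue number and coverage moved together in these libraries. Tested loci with 0.002 to 0.05 fragments per base, as a mean over the 8 libraries, where Hoxa9, Hoxb9, Hoxd8 and Hoxd9 lay, had a median absolute log2 fold change of 0.44 over all genes, against 0.07 for loci above 0.3, where Hoxa2,Hoxa3,Hoxa5,Hoxa6, Hoxb3,Hoxb4,Mir10a and Hoxb5,Hoxb6 lay. From the thinnest to the densest class, 9.77%, 10.5%, 10.1% and 4.31% of all tested loci were called higher. The shares called lower were 15.7%, 10.7%, 6.38% and 5.74%. Of the 7 tested cluster-strand Hox loci in the thinnest class 3 were called higher and 0 lower. Coverage also grew unevenly with depth: within genotypes, fragments rose with the library total at a log-log slope of 1.89 in the thinly covered class and 0.60 in the densest. Its part in the difference between posterior and anterior Hox loci was not tested. The 6 cluster-strand loci between 15 and 30 FPKM in wild type (Hoxa4, Hoxa7,Mira, Hoxb7, Hoxb8, Hoxc4 and Hoxc5) had log2 fold changes from -0.38 to 0.81, with 3 called higher and 1 lower. Among thinly covered loci with lower numbers, Hoxb1 and Hoxc6 each had a log2 fold change of 0.64 at 0.00654 and 0.0232 fragments per base in wild type, and Hoxd4 had -0.04 at 0.0395; none of these passed the test.

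**Figure D5:**
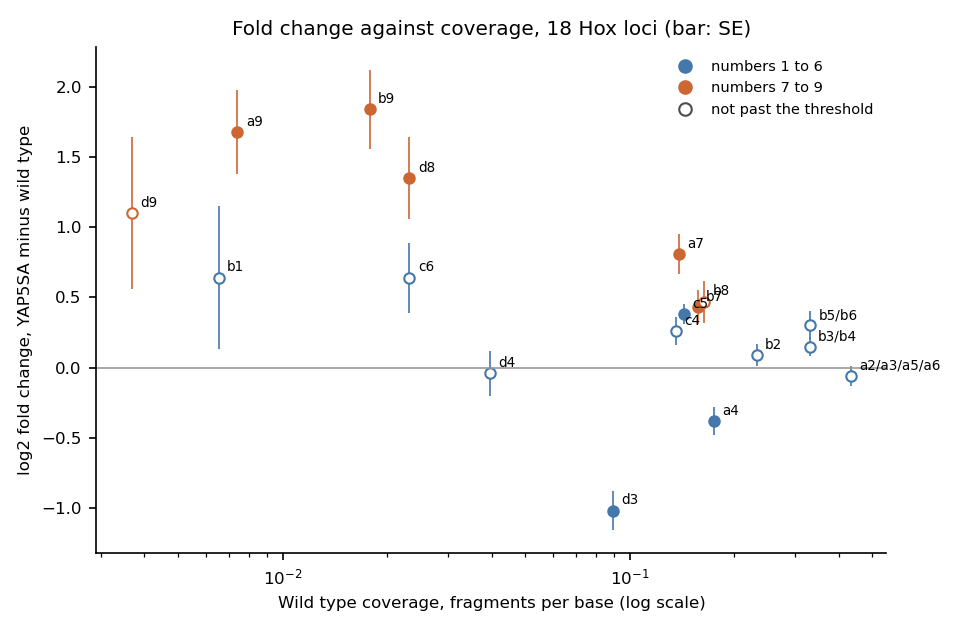
Log2 fold change, YAP5SA minus wild type, of 18 tested cluster-strand Hox loci against wild type coverage in fragments per base on a log axis, with the SE as a bar, filled where the adjusted p was under 0.05. Loci with numbers 7 to 9 (orange) reach from thin to middle coverage, and loci with the densest coverage, at 0.330 fragments per base and more, have values between -0.06 and 0.30.

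Other transcripts within the clusters were few. Gm53, a locus between Hoxb13 and Hoxb9 (chromosome 11, 96251465 to 96264839), was named after its values were seen. It had 3, 4, 0 and 1 fragments in the wild type libraries and 17, 19, 34 and 10 in the YAP5SA libraries, and it fell just short of the filter. The exact two-sided permutation test on its CPM gave p = 0.029, the smallest that 4 against 4 libraries allow, and edgeR without the filter gave an adjusted p of 0.0064. Because Gm53 was named after its values were seen, neither of these can count as support for a rise. Hotair, the noncoding transcript of HoxC, and the microRNA genes Mir196a-1, Mir196a-2, Mir196b and Mir10b were listed at 0 in all libraries. The locus 2700086A05Rik, on the coordinates of the joined HoxA locus, was at 40.2 ± 9.20 CPM in wild type and 60.7 ± 18.6 in YAP5SA (log2 fold change 0.59, SE 0.21, adjusted p = 0.077).

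Few partners and regulators of Hox genes passed the test. None of 9 TALE cofactors, the Pbx, Meis and Pknox proteins that bind DNA with Hox proteins, passed the test, with a list median of 0.12. The smallest p among them were those of Meis2 (log2 fold change 0.18 ± 0.08 SE, adjusted p = 0.13), Pbx4 (0.55 ± 0.23, adjusted p = 0.13) and Pbx3 (0.13 ± 0.06, adjusted p = 0.16). Of 19 Polycomb genes, whose products keep silent Hox genes in repressed chromatin, none rose and 1 fell. That is no more than the background over all tested loci, 9.06% higher and 9.85% lower. Cbx7, a reader of the Polycomb histone mark, fell by 0.82 (SE 0.23, adjusted p = 0.03). The subunits of the methylating complex itself, Ezh2, Eed and Suz12, had log2 fold changes of -0.06, 0.05 and 0.03. None of the 7 trithorax genes found, of 9 listed, passed, nor did any of the 9 tested genes that flank the clusters, whose median log2 fold change was 0.00.

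Of 9 genes of anterior-posterior signalling, 5 were tested and 3 fell, beside 9.85% called lower over all tested loci. Rarb, a retinoic acid receptor and itself a target of retinoic acid, fell by 0.47 on the log2 scale (SE 0.08, adjusted p = 0.0019), from 104 ± 8.80 to 74.6 ± 5.83 CPM. Aldh1a2, which makes retinoic acid, fell by 0.56 (SE 0.09, adjusted p = 0.0024), from 133 ± 14.7 to 90.8 ± 9.72 CPM. Cyp26b1, which degrades it, fell by 0.50 (SE 0.16, adjusted p = 0.049). Of the Cdx and ParaHox genes, relatives of the Hox genes that pattern the gut tube, Cdx4, Gsx1 and Gsx2 had no fragments. Cdx2, the master gene of the intestine, was at 5.56 ± 2.91 and 2.61 ± 1.66 CPM (log2 fold change -1.07 ± 0.60, adjusted p = 0.26), and Pdx1, a gene of the antrum, duodenum and pancreas, at 22.5 ± 10.5 and 17.4 ± 3.40 (adjusted p = 0.43).

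In whole stomachs, fewer cells of a type and less RNA per cell cannot be told apart, and several cell types moved with the genotype. The counts below stand beside 9.06% called higher and 9.85% called lower over all tested loci. Enteric neuron markers fell in 7 of 8 cases with a list median of -1.07, and their summed level was 606 to 690 CPM in wild type and 354 to 402 in YAP5SA. All 8 epithelial markers fell (803 to 939 CPM against 445 to 610), as did 4 of 7 smooth muscle markers (1140 to 1220 against 541 to 785) and 5 of 7 markers of enteric glia (343 to 381 against 189 to 251). All 5 macrophage markers found rose, with a median of 0.98 and summed levels of 216 to 300 CPM against 423 to 588. Of 3 tested skeletal muscle markers Myod1 and Myog rose, with summed levels over the list of 17.1 to 99.4 and 75.1 to 209 CPM. The part of any of these in the Hox values was not tested.

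None of the tested markers of more posterior gut and of limb rose, which for so few is near the 9.06% called higher over all tested loci. Of 6 intestinal markers 4 were tested, none rose and 1, Vil1, fell (log2 fold change -1.42 ± 0.43 SE, adjusted p = 0.042); the list summed to 37.0 to 78.5 CPM in wild type and 45.7 to 53.4 in YAP5SA, with Cdx1 at 0.422 ± 0.402 and 0.165 ± 0.0700 CPM. Of 6 markers of limb and body wall 3 were tested and Pitx1 fell (-0.63 ± 0.08, adjusted p = 0.00037), with the list at 149 to 181 and 96.0 to 118 CPM, nearly all of it Pitx1 (162 ± 13.9 and 104 ± 8.44); Tbx5 and Tbx4 averaged at most 2.04 CPM and did not pass. Lmx1b, Tbx15 and Shox2 of that list averaged at most 0.728 CPM in either genotype. Of 5 stomach mesenchyme markers found, 2 fell and none rose, at 566 to 598 CPM against 433 to 522. The part of more posterior gut or of limb in the Hox values was not tested.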

How the data were processed

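Libraries were made from total RNA of frozen stomachs with an Illumina TruSeq kit, per the labels' protocols. Alignment and assembly used TopHat2 2.0.9 and Cufflinks 2.2.1, with Cuffdiff, on mm10, per the submitters' processing notes; strand use and duplicate removal are not given in the sources used here. The deposited table holds raw fragments per locus and library: estimated counts, not whole in 10.6% to 11.0% of cases, and rounded here, and FPKM, which the authors scaled between libraries. The table counts replicates from 0 and the titles from 1, and they were matched in that order of names. Its starts count from 0 and 1 was added. Unnamed loci (3582, with 1.85% to 1.97% of fragments) stayed out. The table gives 3 of 213976 values a failed status; they stayed in. No 2 libraries of a group agreed within sampling noise (lowest mean chi-square 2.31 per locus).

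Counts were tested with edgeR 4.0.16 (R 4.3.3; robust quasi-likelihood, TMM, filterByExpr at 10 fragments and 15 in total, genotype as the term), two-sided, with Benjamini-Hochberg adjustment and a threshold of 0.05. Same-numbered libraries deviated together (correlations 0.22, 0.14, 0.14 and 0.21, each the best of its row), so the numbers were taken to pair the libraries, and the fit with that block is an alternative. Other alternatives were DESeq2 1.42.0, limma 3.58.1 (voom, or log2 of FPKM plus 0.1 or 1), other size factors, no filter, each library left out, and loci on shared coordinates summed, the last added after the data were seen. The edgeR step was tested on simulated data. The members and lists were chosen with earlier results of these data known. Every tested Hox locus past the threshold and the 2 highest of each cluster by wild type FPKM were to be given in full; of each list, counts and up to 3 members with the smallest p. Further lists of mesothelium (2 of 5 lower), endothelium (1 of 6 higher), spleen (1 of 4 lower) and pancreas (0 of 4 called) were summed too. A single Hox gene is not reported here by its own values, though its loci are in the counts and sums.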

Additional observations from a re-analysis of the deposited data

Results flagged for a closer look

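In groups of 4 libraries, a library whose gap to its neighbour exceeded Dixon's 95% critical value as a part of the group's range was set apart, which chance does in about 1 of 20 groups. Hoxa9 was at 4.42 CPM in wild type replicate 4, with the next library at 2.94, and still below all YAP5SA libraries. Hoxb9 was at 16.9 CPM in YAP5SA replicate 1, with the others between 26.8 and 27.1. Hoxd3 was at 36.0 CPM in wild type replicate 2 against 48.0 for its neighbour, and at 28.0 CPM in YAP5SA replicate 1 against 20.9.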

How the results depend on the processing

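The count of Hox loci called lower, 2, was 1 to 2 with each library left out, and 1 with loci on shared coordinates summed; the count called higher, 8, was 7 to 10 with libraries left out and 11 with the replicate block. The replicate block changed no call beside those of Hoxb8, Hoxb5,Hoxb6 and Hoxc4, which it added; DESeq2 added Hoxb8 (adjusted p = 0.02) and Hoxb5,Hoxb6 (0.043), and other size factors added Hoxb8 (0.046). Apart from Hoxa4 and Hoxb7, the 8 called loci kept their call and direction in all 17 alternatives. The fit on summed coordinates did not test Hoxc5, Hoxd3, Hoxd8 and the opposite-strand loci of Hoxb5 and Hoxd8 singly. It gave each of them the value of its sum. In CPM the log2 difference of numbers 1 to 3 was -0.26 in place of -0.06. Signs turned for loci near 0: Hoxc4 was at -0.02 in limma on FPKM with either pseudocount and without a filter; Hoxd4 was at 0.05, 0.04 and 0.05 in those fits and between -0.16 and 0.06 with a library left out; the joined Hoxa2,Hoxa3,Hoxa5,Hoxa6 was between -0.10 and 0.00 with a library left out, and with Hoxa4 at 0.00 on summed coordinates. The cause was not tested. Depth limits the posterior loci: numbers 10 to 13, with at most 5 fragments in a library, could not be compared.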
